A study of Mus musculus with 6 samples.

Results

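The PPM phosphatases are serine/threonine phosphatases of the PP2C type. They work as single proteins that need magnesium or manganese ions, and each removes phosphate from its own set of kinases and signalling proteins. Ppm1a, the best known member, was shown in human cells to strip the activating phosphates from SMAD2 and SMAD3, the proteins that carry TGF-beta signals to the nucleus. In injured muscle, TGF-beta signals act on the stromal cells that lay down matrix and fat.

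The 10 genes described here are those of the deposited read count table that carry the symbols Ppm1a, Ppm1b, Ppm1d, Ppm1f, Ppm1g, Ppm1h, Ppm1j, Ppm1k, Ppm1l and Ppm1m, out of 16289 genes in all, and each of the 10 was measured in every library. The family was chosen by the measured fall of Ppm1a, 1 of 9 genes that passed as lower in this same comparison (edgeR's quasi-likelihood test across all genes, adjusted p under 0.05). The values of Ppm1a are therefore a description with no test, and the question put to the data is whether its relatives moved with it.

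RNA was taken from the tibialis anterior, a muscle at the front of the lower leg, of wild-type male C57BL/6J mice aged 12 weeks, 14 days after an injection of glycerol, which destroys muscle fibres. In 3 mice glycerol was combined with melatonin, the pineal hormone of the night (glycerol+melatonin), and in 3 mice with a control treatment (glycerol). All 6 mice were injured, no uninjured muscle was analysed here, and how melatonin was dosed is not stated in the labels or the series' text. The tissue label was followed, although the extraction protocol speaks of longissimus dorsi, a muscle of the back. Levels are given as CPM, counts per 1e6 of a library total that was first multiplied by its TMM normalisation factor (0.8691 to 1.1407). The 12 fibre genes checked summed to 115000 to 178000 CPM in glycerol+melatonin and to 160000 to 192000 CPM in glycerol. These sums were led by the actin gene Acta1 and the calcium pump gene Atp2a1. Total counts ran from 41204718 to 47945178 in the glycerol+melatonin libraries and from 39310361 to 48879045 in the glycerol libraries. In bulk muscle, fewer cells of a type and less RNA per cell cannot be told apart.

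Ppm1a stood at 46.5, 34.7 and 28.8 CPM in the 3 glycerol+melatonin mice, against 105, 134 and 116 CPM in the 3 glycerol mice. Every glycerol+melatonin mouse lay below every glycerol mouse, with a wide gap between the groups. The means were 36.7 ± 9.01 and 118.5 ± 14.6 CPM (SD, n = 3 each), a log2 fold change of -1.69 ± 0.21 (SE), or 3.23-fold lower. On GRCm38 the gene (ENSMUSG00000021096) runs along chromosome 12 from 72757455 to 72799819 on the plus strand. No other annotated gene shares exon bases with it. Of its 12878 distinct stretches of 50 transcript bases, 0 occur in another of the 10 genes. In 1 other annotated gene, which is not among the counted genes, 11 occur.

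**Figure D1:**
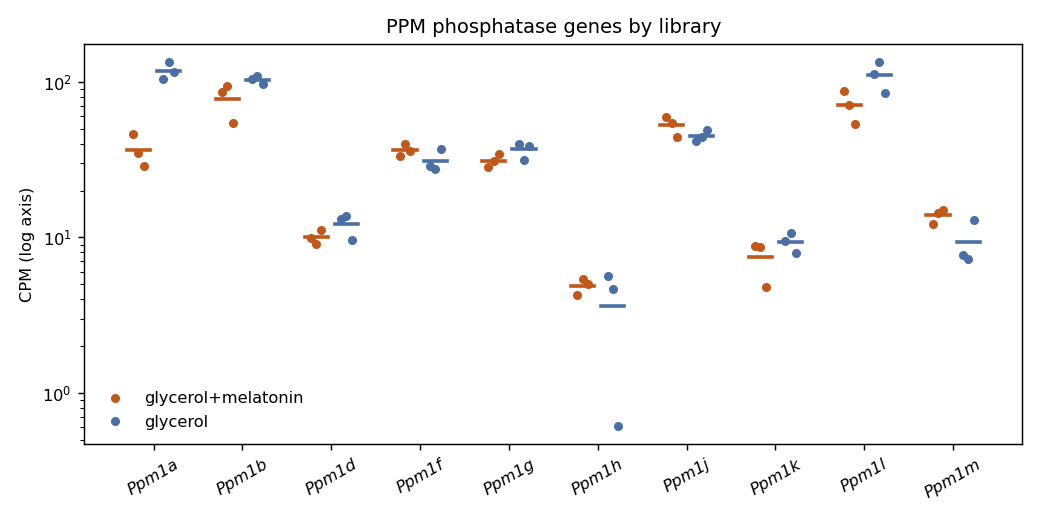
CPM of the 10 PPM genes in each library (points) with group means (bars), on a log axis, glycerol+melatonin left of glycerol. The Ppm1a points lie at 28.8 to 46.5 in glycerol+melatonin and at 105 to 134 in glycerol, and the single low point of Ppm1h is glycerol replicate 3 at 0.612.

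Ppm1b, the closest relative of Ppm1a, dephosphorylates the kinases TAK1 and IKK-beta. It was at 85.6, 94.4 and 54.2 CPM in glycerol+melatonin, against 104, 109 and 96.3 CPM in glycerol. The groups did not overlap, but replicates 1 and 2 of glycerol+melatonin came close to the glycerol mice, and replicate 3 lay far below both. The log2 fold change was -0.40 ± 0.21 (95% interval -0.89 to 0.09, edgeR adjusted p = 0.337). Without glycerol+melatonin replicate 3 it was -0.19 ± 0.14 (edgeR adjusted p = 0.538). Of the 50-base stretches of Ppm1b, 13.4% recur in its processed pseudogene Gm7895, which had 21, 19 and 12 counts in glycerol+melatonin, against 46, 45 and 29 in glycerol. Ppm1b itself had 2547 to 5115 counts in glycerol+melatonin and 3930 to 4738 in glycerol.

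Ppm1l encodes a phosphatase of the endoplasmic reticulum membrane that acts on the stress kinases TAK1 and ASK1. It was at 88.0, 71.3 and 54.0 CPM in glycerol+melatonin, against 113, 134 and 85.5 CPM in glycerol. The groups overlapped, as glycerol+melatonin replicate 1 was just above glycerol replicate 3. Its log2 fold change of -0.64 ± 0.23 (95% interval -1.17 to -0.11) was the lowest of the 9 relatives and did not pass (edgeR adjusted p = 0.200, unadjusted p = 0.0231).

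Within each library, counts of Ppm1a could be set against those of these relatives. The ratio of Ppm1a to Ppm1b counts was 0.543, 0.368 and 0.531 in glycerol+melatonin, against 1.01, 1.23 and 1.21 in glycerol. The ratio of Ppm1a to Ppm1l counts was 0.528, 0.487 and 0.534 in glycerol+melatonin, against 0.93, 0.997 and 1.36 in glycerol. Neither ratio overlapped between the groups, and neither was tested, since Ppm1a was chosen for its fall.

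Ppm1j and Ppm1m, with Ppm1h, form a separate branch of the family. Ppm1j was at 59.9, 54.7 and 44.0 CPM in glycerol+melatonin, against 41.4, 44.4 and 49.3 CPM in glycerol. The ranges overlapped, and the log2 fold change was 0.23 ± 0.16 (95% interval -0.14 to 0.60, edgeR adjusted p = 0.449). Ppm1m was at 12.2, 14.4 and 14.9 CPM in glycerol+melatonin, against 7.76, 7.21 and 12.9 CPM in glycerol. Its log2 fold change of 0.57 ± 0.24 (95% interval 0.02 to 1.13) was the highest of the 10 and did not pass (edgeR adjusted p = 0.248, unadjusted p = 0.0448). Glycerol replicate 3 stood apart from its group near the glycerol+melatonin level. The mean log2 level of the 9 fat cell genes measured of 10 listed was also highest in that library, at 0.96. It was -0.21 and -0.66 in the other glycerol mice and -0.38 to 0.55 in glycerol+melatonin. Their summed level, led by Fabp4 and Pnpla2, differed less, at 1020, 913 and 1400 CPM in glycerol and 1380, 1070 and 1330 CPM in glycerol+melatonin. The part of fat cells in the values of glycerol replicate 3 was not tested. Without glycerol replicate 3 the log2 fold change of Ppm1m was 0.89 ± 0.19 (edgeR adjusted p = 0.0768).

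Ppm1h reverses the phosphorylation of Rab GTPases by the kinase LRRK2. It was at 4.27, 5.39 and 4.98 CPM in glycerol+melatonin, against 5.63, 4.65 and 0.612 CPM in glycerol. Glycerol replicate 3 had 25 counts where the other 5 libraries had 187 to 292, and this 1 library set the direction. The log2 fold change was 0.43 ± 0.61 (95% interval -0.96 to 1.81, edgeR adjusted p = 0.727), and -0.07 ± 0.22 without that library (edgeR adjusted p = 0.879).

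Ppm1d, also called Wip1, is induced by p53 and switches the DNA damage response off again. It was at 9.84, 9.04 and 11.2 CPM in glycerol+melatonin, against 13.1, 13.7 and 9.58 CPM in glycerol, with overlapping groups (log2 fold change -0.27 ± 0.19, 95% interval -0.72 to 0.17, edgeR adjusted p = 0.448). Ppm1f, a phosphatase of CaM kinase II and PAK kinases, was at 33.3, 39.9 and 36.1 CPM in glycerol+melatonin, against 28.8, 27.5 and 36.8 CPM in glycerol. Here glycerol replicate 3 again lay within the glycerol+melatonin range (log2 fold change 0.23 ± 0.17, 95% interval -0.15 to 0.61, edgeR adjusted p = 0.451). Ppm1g, a nuclear phosphatase with roles in splicing, was at 28.4, 30.9 and 34.3 CPM in glycerol+melatonin, against 40.0, 31.5 and 39.0 CPM in glycerol. Its groups overlapped too (log2 fold change -0.24 ± 0.16, 95% interval -0.60 to 0.12, edgeR adjusted p = 0.419).

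Ppm1k is the mitochondrial phosphatase that activates the branched-chain ketoacid dehydrogenase, the committed step of leucine, isoleucine and valine breakdown. It was at 8.79, 8.71 and 4.81 CPM in glycerol+melatonin, against 9.49, 10.7 and 7.89 CPM in glycerol. Replicates 1 and 2 of glycerol+melatonin lay within the glycerol range, and replicate 3 below it. The log2 fold change was -0.33 ± 0.26 (95% interval -0.93 to 0.26, edgeR adjusted p = 0.493), and -0.09 ± 0.20 without that library (edgeR adjusted p = 0.840).

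**Figure D2:**
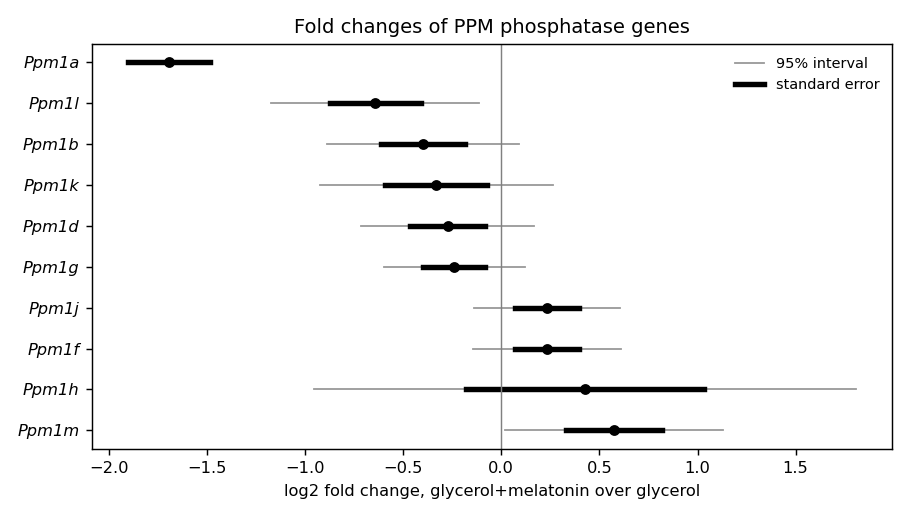
Log2 fold change of each PPM gene, glycerol+melatonin over glycerol (points), with the standard error (thick bars) and, for all but Ppm1a, the 95% interval (thin bars). Ppm1a lies at -1.69, and the relatives lie between Ppm1l at -0.64 and Ppm1m at 0.57.

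Across the family, Ppm1a was the 1 member of 10 that passed as lower, where 9 of 16259 genes (0.0554%) passed in that direction, and nothing is read from this count because it chose the family. Of the other 9 members, 0 passed by edgeR, which called a further 3 genes (0.0185%) as higher. By DESeq2 0 of the 9 passed either, where 2.72% of genes were called lower and 2.13% higher. Among the 9, 2 (Ppm1l and Ppm1m, in opposite directions) had an unadjusted edgeR p under 0.05, where 19.5% of all genes tested did. Of these 9, 5 were below 0 and 4 above, and their median was -0.24 on the log2 scale, against 48.3% below 0 and a median of 0.02 over all genes. Apart from Ppm1a, the groups did not overlap for 1 of the 9, Ppm1b, which was lower. Of all genes, 12.5% were lower without overlap and 13.6% higher. Whether Ppm1a fell more than its relatives was not tested, because its fall chose the family. For Ppm1b, Ppm1k and Ppm1l the intervals reach down to -0.89, -0.93 and -1.17, so sizeable falls lie within them. A p that misses the threshold does not show that these genes were unchanged.

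Levels between genes were compared as CPM per kilobase of the longest annotated transcript. In glycerol+melatonin, Ppm1a was the 7th of the 10 at 4.78 ± 1.17 CPM per kilobase, and in glycerol it was the 4th at 15.4 ± 1.91 (SD, n = 3 each). In glycerol+melatonin Ppm1j led at 30.7 ± 4.69 CPM per kilobase, followed by Ppm1b at 23.5 ± 6.36, with overlapping libraries. In glycerol Ppm1b led at 31.0 ± 1.94 CPM per kilobase, above Ppm1j at 26.2 ± 2.33, and the libraries of these genes touched closely (lowest 29.0 for Ppm1b, highest 28.7 for Ppm1j). This order turned when lengths were taken from the union of exons, with Ppm1j at 24.8 ± 2.21 and Ppm1b at 19.6 ± 1.23 CPM per kilobase in glycerol.

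Below these leaders, by the longest transcript, Ppm1g came next in both groups at 13.5 ± 1.28 CPM per kilobase in glycerol+melatonin and 16.0 ± 2.03 in glycerol. By the union of exons it was the 5th in both groups, at 6.42 ± 0.607 in glycerol+melatonin and 7.58 ± 0.963 in glycerol, and Ppm1a was the 8th in glycerol+melatonin and again the 4th in glycerol. By the longest transcript, in glycerol Ppm1g overlapped with Ppm1a, which in turn overlapped with Ppm1l at 11.8 ± 2.61 CPM per kilobase. In glycerol+melatonin the libraries of Ppm1l (7.55 ± 1.81), Ppm1m (7.49 ± 0.782) and Ppm1f (7.40 ± 0.678) could not be separated, and Ppm1a lay below all of Ppm1f and overlapped with Ppm1d (3.46 ± 0.379). Ppm1k and Ppm1h were the lowest in both groups, with Ppm1k at 1.34 ± 0.410 and Ppm1h at 0.766 ± 0.0887 CPM per kilobase in glycerol+melatonin.

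**Figure D3:**
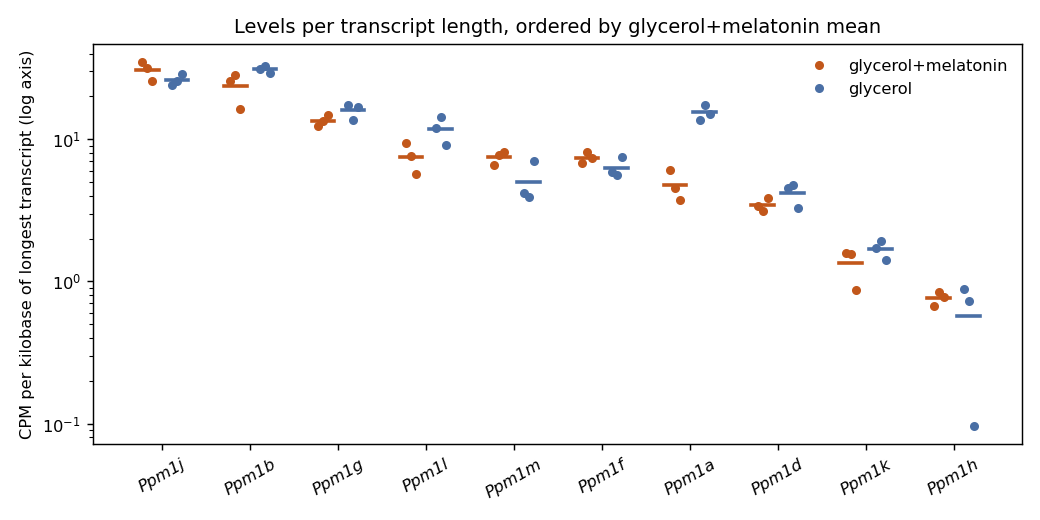
CPM per kilobase of the longest transcript in each library (points) with group means (bars), on a log axis, glycerol+melatonin left of glycerol, genes ordered by their glycerol+melatonin mean. Ppm1a is the 7th gene from the left at 4.78 in glycerol+melatonin and stands at 15.4 in glycerol, close to Ppm1g at 16.0.

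Summed over the 10 genes, the family amounted to 107, 107 and 87.2 CPM per kilobase in glycerol+melatonin, against 115, 121 and 118 in glycerol. Without Ppm1a the sums were 101, 103 and 83.4 in glycerol+melatonin, against 102, 103 and 103 in glycerol. Apart from glycerol+melatonin replicate 3, the sum of the other 9 was nearly level over the mice, with lengths from the longest transcript. It adds higher glycerol+melatonin means of Ppm1j and Ppm1m to lower ones of Ppm1b and Ppm1l. A level sum therefore does not show that each gene was level. Ppm1a made up 5.65%, 4.22% and 4.31% of the family sum in glycerol+melatonin, against 11.9%, 14.5% and 12.8% in glycerol. Ppm1j made up 32.4%, 29.7% and 29.4% in glycerol+melatonin, against 20.8%, 21.3% and 24.3% in glycerol. The sum includes Ppm1a, so the fall of Ppm1a by itself raises the shares of the other members. In CPM, Ppm1j overlapped between the groups, and the shares are a description only.

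Glycerol+melatonin replicate 3 was the lowest library for Ppm1a, Ppm1b, Ppm1k and Ppm1l. The same library was the lowest for the summed fibre genes at 115000 CPM, where glycerol+melatonin replicates 1 and 2 had 178000 and 146000 CPM. It was also the highest for the 5 neutrophil genes measured of 8 listed, which summed to 5.89, 9.10 and 22.6 CPM in glycerol+melatonin and to 5.11, 5.30 and 5.34 CPM in glycerol. The 8 endothelial genes summed to 1580 CPM there, and to 996 to 1200 CPM in the other 5 libraries. Their part in the low values of the 4 phosphatase genes was not tested. Without that library Ppm1a was at -1.54 ± 0.20, Ppm1l at -0.47 ± 0.22 and Ppm1b at -0.19 ± 0.14 on the log2 scale. The 10 progenitor genes summed to 976 to 1150 CPM in glycerol+melatonin and to 1190 to 1690 CPM in glycerol, a sum led by Dcn and Cd34. Of these 10 genes 6 were below 0 and 4 above, with a median log2 fold change of -0.61. DESeq2 called 3 of them lower (0 by edgeR, 5 at an unadjusted edgeR p under 0.05). Over all genes, DESeq2 called 2.72% lower, and 19.5% had an unadjusted edgeR p under 0.05. The mean log2 level of the 10 progenitor genes overlapped between the groups (-0.32 to -0.02 in glycerol+melatonin, -0.09 to 0.35 in glycerol). The 10 genes of new fibres had 9 above 0, a median log2 fold change of 0.53 and 2 called higher by DESeq2 (0 by edgeR, 4 at an unadjusted p under 0.05). Their mean log2 level did not overlap, at 0.05 to 0.47 in glycerol+melatonin and -0.68 to -0.10 in glycerol. Their summed level, led by Actc1, lay the other way, at 2850, 3000 and 2060 CPM in glycerol+melatonin and 3330, 3300 and 3080 CPM in glycerol. The part of stromal cells or new fibres in the fall of Ppm1a was not tested.

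The profile of Ppm1a over the 6 libraries was compared with those of 8164 other named genes of at least 10 CPM on average, as the root mean square difference of log2 CPM after each gene's mean was subtracted. Among the 4 nearest were Neo1, a receptor for netrins and repulsive guidance molecules (0.146), Chp1, a calcineurin-like calcium binding protein (0.210), and Taco1, an activator of mitochondrial translation (0.224). Neo1 was at 15.5 ± 5.30 CPM in glycerol+melatonin and 46.4 ± 1.27 CPM in glycerol. Among the relatives Ppm1l was nearest at 0.561, with 321 genes nearer to Ppm1a, and Ppm1b next at 0.669, with 954 genes nearer. For Ppm1j, Ppm1f, Ppm1m and Ppm1h, 5576, 6212, 7780 and 8131 of the 8164 genes were nearer to Ppm1a. Ppm1h lay at -2.44 from its own mean in glycerol replicate 3, where its count was low. The difference includes the fall of Ppm1a between the groups, which chose the family, so these ranks are a description and no separate support.

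**Figure D4:**
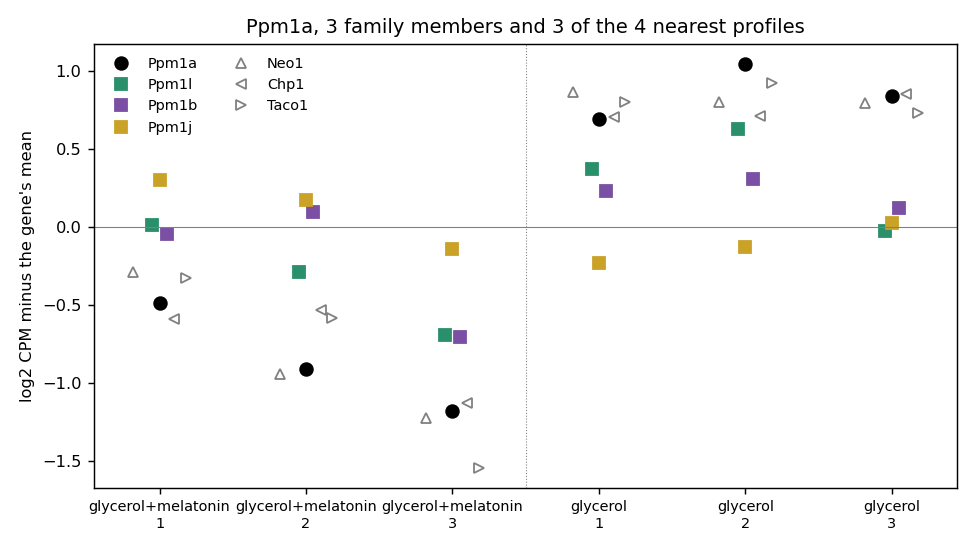
Log2 CPM minus the gene's mean over the 6 libraries, for Ppm1a (black circles), the relatives Ppm1l, Ppm1b and Ppm1j (squares) and 3 of the 4 genes with the nearest profiles (open triangles), glycerol+melatonin left of glycerol. Ppm1a runs from -1.18 to -0.48 in glycerol+melatonin and from 0.69 to 1.04 in glycerol, while Ppm1b and Ppm1l lie nearer to 0 in most libraries.

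The counts over lists that follow stand beside those over all genes tested, of which 19.5% had an unadjusted edgeR p under 0.05, 48.3% were below 0, and 2.72% were called lower and 2.13% higher by DESeq2. Transcripts of the SMAD proteins on which PPM1A acts overlapped between the groups. Smad2 was at 7.79, 6.39 and 10.6 CPM in glycerol+melatonin, against 7.36, 8.52 and 7.86 CPM in glycerol (log2 fold change 0.06 ± 0.22, 95% interval -0.44 to 0.56, edgeR adjusted p = 0.903). Smad3 was at 98.4, 91.6 and 79.7 CPM in glycerol+melatonin, against 95.3, 121 and 93.3 CPM in glycerol (-0.20 ± 0.17, 95% interval -0.58 to 0.18, edgeR adjusted p = 0.526). RNA counts do not measure the phosphorylation of these proteins. Of 27 SMADs, receptors and regulators, 0 passed by edgeR (7 at an unadjusted p under 0.05) and 3 were lower by DESeq2, with 22 below 0 and a median of -0.19 on the log2 scale. Scaled by library size alone, 12 of the 27 were below 0 and their median was 0.01. Under that scaling 29.4% of all genes were below 0, and the median of all genes was 0.23. The 4 with the smallest p were the SMAD anchor Zfyve9 (-1.20 ± 0.18), the co-receptor Tgfbr3 (-0.57 ± 0.14) and the receptors Acvr1b (-0.80 ± 0.24) and Bmpr1a (-0.58 ± 0.18), with edgeR adjusted p from 0.0788 to 0.179.

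Of 12 SMAD target genes, 0 passed by edgeR (5 at an unadjusted p under 0.05) and 2 were higher by DESeq2, Id1 and Id3. Of the 12, 9 were above 0, with a median of 0.22 on the log2 scale. Scaled by library size alone, 10 were above 0 and the median was 0.45. Under that scaling 11476 of all 16259 genes were above 0, with a median of 0.23. Id1, an inhibitor of basic helix-loop-helix factors, was at 38.9, 51.0 and 56.4 CPM in glycerol+melatonin, against 17.2, 18.9 and 22.6 CPM in glycerol (1.32 ± 0.19, edgeR adjusted p = 0.0654). Id3 was at 0.81 ± 0.22, the matricellular gene Ccn2 at 0.71 ± 0.26 and the corepressor gene Tgif1 at 0.69 ± 0.26 (edgeR adjusted p from 0.156 to 0.214).

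Of 18 listed genes of stress kinases and their partners, the substrates of Ppm1a, Ppm1b and Ppm1l among them, 17 were measured. By edgeR 0 passed (5 at an unadjusted p under 0.05), and by DESeq2 1 was lower, Prkaa2. Of the 17, 14 were below 0, with a median of -0.56 on the log2 scale. The 4 with the smallest p were Mapk9 (-0.56 ± 0.18), the AMP kinase gene Prkaa2 (-0.92 ± 0.30), the TAK1 partner Tab2 (-0.68 ± 0.22) and Map2k6 (-0.71 ± 0.23), with edgeR adjusted p from 0.178 to 0.185. Map3k7, which encodes TAK1, was at 47.1, 48.5 and 10.7 CPM in glycerol+melatonin, against 66.6, 58.4 and 45.0 CPM in glycerol, so that 1 library lay far below the other 5 (-0.68 ± 0.48, edgeR adjusted p = 0.447). Of 15 NF-kB kinases and regulators, 0 passed by edgeR (4 at an unadjusted p under 0.05) or by DESeq2, with 9 above 0 and a median of 0.22. Relb was at 0.51 ± 0.16, Chuk at 0.45 ± 0.17, Traf2 at 0.39 ± 0.16 and Ikbke at 0.62 ± 0.26 (edgeR adjusted p from 0.181 to 0.243). Ikbkb, which encodes IKK-beta, was at -0.03 ± 0.16 (edgeR adjusted p = 0.933).

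For the pathway of Ppm1k, 0 of 23 genes of branched-chain amino acid breakdown passed by edgeR (6 at an unadjusted p under 0.05) and 2 were lower by DESeq2, with 14 below 0 and a median of -0.24 on the log2 scale. The 4 with the smallest p were Pcca (-0.98 ± 0.23), Acadsb (-1.91 ± 0.46), Mmut (-0.79 ± 0.24) and Dbt, the core of the dehydrogenase (-0.70 ± 0.25), with edgeR adjusted p from 0.134 to 0.200. Acadsb was at 11.3, 9.87 and 10.6 CPM in glycerol+melatonin and scattered over 72.8, 29.1 and 17.3 CPM in glycerol. Bckdk, the kinase that opposes Ppm1k, was at -0.52 ± 0.22 (edgeR adjusted p = 0.253), and Bckdha, which encodes its substrate, at 0.00 ± 0.20 (edgeR adjusted p = 0.993). Most of the exon bases of Bckdha, 1171 of 1899, overlap with B3gnt8 on the other strand, and whether the counting used strand is not stated, so their reads may be mixed. For the same reason other named genes that share exon bases with a counted gene on the other strand are uncertain. Besides Rab10, given below, they are Zfyve9 (706 of 6459 bases), Ccn2 (665 of 2861), Pptc7 (1002 of 4719), Gadd45a (337 of 1764), Ilkap (357 of 5556) and Pcca (241 of 5210). Overlaps were checked for the members and the gene lists around them, and not for cell type genes or genes outside these lists.

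Around Ppm1d, 0 of 14 genes of the DNA damage and p53 loop passed by edgeR (6 at an unadjusted p under 0.05) and 3 were higher by DESeq2, with 10 above 0 and a median of 0.28 on the log2 scale. The cell death gene Bax was at 20.4, 30.4 and 31.0 CPM in glycerol+melatonin, against 12.8, 12.1 and 17.6 CPM in glycerol (0.94 ± 0.22, edgeR adjusted p = 0.137). Gadd45a was at 0.64 ± 0.16, Mdm4 at 0.73 ± 0.18 and Cdkn1a at 0.58 ± 0.19 (edgeR adjusted p from 0.139 to 0.182), while Mdm2 was at 0.11 ± 0.15 (edgeR adjusted p = 0.705).

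Of 8 further PP2C genes measured of 10 listed, 0 passed by edgeR (4 at an unadjusted p under 0.05) and 1 was lower by DESeq2. That gene was Pdp1, which activates pyruvate dehydrogenase in mitochondria. It was at 38.8, 33.9 and 30.9 CPM in glycerol+melatonin, against 58.6, 59.0 and 47.5 CPM in glycerol, with no overlap (-0.67 ± 0.16, edgeR adjusted p = 0.136). Pptc7 was at -0.76 ± 0.29, Pdp2 at -0.81 ± 0.34 and Ilkap at 0.38 ± 0.16 (edgeR adjusted p from 0.219 to 0.254).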

How the data were processed

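The authors deposited raw read counts per Ensembl gene for 6 libraries, 1 per mouse. Build mm10, the aligner HISAT2 2.0, Trimmomatic 0.36, StringTie 1.3.3b and DESeq2 1.12.4 are named, without roles or order, in the submitters' processing notes, next to FastQC 0.11.2 and bedtools 2.26.0. Which tool counted, on which annotation, with which strand setting and with what treatment of multi-mapped reads is not given in these sources. The smallest gene total is 28, so low genes had been filtered out. Positions and lengths came from GENCODE M21, whose assembly, GRCm38, is that of mm10.

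The comparison was fitted across all genes with edgeR 4.0.16 (R 4.3.3, quasi-likelihood test, TMM factors, filterByExpr, 16259 genes kept), Benjamini-Hochberg adjusted, threshold 0.05. CPM carry the TMM factors, and log2 CPM used a prior count of 2. Standard errors are the log2 fold change over the square root of F. Intervals are at 95% with the fit's degrees of freedom. The members and gene lists were chosen with earlier results of these data known, and lists were counted, not tested. Named in each list were genes that passed and the 4 with the smallest p and a mean of at least 1 CPM, with fixed partners of the members. Of the 4 genes nearest to Ppm1a in profile, 1 is not reported here. The series' text calls the samples biological replicates. The scripts were tested on simulated counts. At this depth, counting error is small beside the spread between mice, except where a gene has few counts. Alternatives were other factors, filters, DESeq2 1.42.0, limma-voom (limma 3.58.1), a replicate block, a transcript length correction and leaving out each library.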

Additional observations from a re-analysis of the deposited data

How the results depend on the processing

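The number of genes passing was 12 by edgeR, Ppm1a among them, 744 by DESeq2, 59 at an edgeR adjusted p under 0.1, 0 with the replicate block (2991 genes at an unadjusted p under 0.05) and 6 to 27 when 1 library was left out. Same-numbered mice did not deviate together (correlations -0.010, -0.011 and -0.049), and differently numbered mice ran from -0.13 to 0.131. This check showed no pairing by number, but 3 mice per group are too few to settle it. With the replicate block Ppm1a was at -1.72 (edgeR adjusted p = 0.123) and without it at -1.69 (edgeR adjusted p = 0.0419). Over all alternatives Ppm1a ran from -1.90 to -1.50, and without single libraries from -1.90 to -1.54. Its edgeR adjusted p was 0.0236 without glycerol+melatonin replicate 1. Without any other single library it was 0.058 to 0.133, so Ppm1a did not pass there. After the transcript length correction Ppm1a was at -1.51 (edgeR adjusted p = 0.0857). No relative passed under any alternative run, and none turned round except Ppm1h, which ran from -0.07 (without glycerol replicate 3) to 0.89 when 1 library was left out. Scaling by library size alone raised the median of all genes by 0.21, to 0.23, and that of stress kinases to -0.34, NF-kB genes to 0.46, branched-chain breakdown to -0.05 and the p53 loop to 0.50. After the transcript length correction the median of all genes was 0.03. That of SMADs, receptors and regulators was then -0.04 (18 of 27 below 0), stress kinases -0.47, NF-kB genes 0.11 and the p53 loop 0.12. SMAD target genes were at 0.34 and branched-chain breakdown at -0.27. With lengths from the union of exons, levels moved to 6.05 CPM per kilobase for Ppm1a, 17.2 for Ppm1b, 7 for Ppm1g and 4.27 for Ppm1m, beside 27.0 for Ppm1j and 8.67 for Ppm1l, so Ppm1b lost the first place in glycerol and Ppm1g the third place in both groups. By DESeq2, where edgeR passed 0, 1 further PP2C gene, 3 SMADs, receptors and regulators, 2 SMAD target genes, 1 stress kinase, 2 genes of branched-chain amino acid breakdown, 3 of the DNA damage and p53 loop and 1 CaMK or PAK kinase passed. The smallest groups of counts, such as the 25 of Ppm1h in 1 library, limit depth, and 3 mice per group limit the rest.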

Other observations

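The kinases on which Ppm1f and Ppm1h act, and the other large phosphatase family, were counted as lists. Of 11 genes on the CaMK and PAK kinase list, 0 passed by edgeR (3 at an unadjusted p under 0.05). By DESeq2 1 was lower, Camk2a, a CaM kinase II gene. Arhgef6 and Arhgef7 on this list encode exchange factors and not kinases. Camk2a was at -1.13 ± 0.35, Arhgef6 at -0.63 ± 0.19, Camk2g at -0.59 ± 0.18 and Camk2b at -0.50 ± 0.25 on the log2 scale (edgeR adjusted p from 0.168 to 0.306). Of 12 LRRK kinases and Rab substrates, 0 passed by edgeR (1 at an unadjusted p under 0.05) or DESeq2. The Rab GTPase genes Rab10 (-0.69 ± 0.24), Rab12 (-0.42 ± 0.19), Rab29 (0.49 ± 0.24) and Rab35 (-0.22 ± 0.13) had the smallest p (edgeR adjusted p from 0.188 to 0.377; Rab10 shares 143 of 3513 exon bases with a counted gene on the other strand), and Lrrk2 was at -0.31 ± 0.19 (edgeR adjusted p = 0.400). Of 12 catalytic subunit genes of the PPP phosphatases measured of 13 listed, 0 passed by edgeR (3 at an unadjusted p under 0.05) or DESeq2. Ppp1cc was at -0.47 ± 0.17, Ppp4c at 0.46 ± 0.18, Ppp6c at -0.40 ± 0.16 and Ppp3cc at -0.35 ± 0.19 (edgeR adjusted p from 0.197 to 0.340).

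The low value of Ppm1h in 1 library led to a count, made after its values were seen, of genes with 1 library more than 4 times below the next lowest. Of 11726 genes with a mean of at least 3 CPM, 87 were so, spread over all libraries, with 16, 19 and 22 in the glycerol+melatonin libraries and 10, 12 and 8 in the glycerol libraries. Adnp, a widely expressed transcription factor gene, had 1523, 8 and 1664 counts in glycerol+melatonin and 1765, 1629 and 1405 in glycerol. Rlim, a ubiquitin ligase gene, had 978, 1528 and 6 counts in glycerol+melatonin and 904, 1004 and 982 in glycerol. Gemin4 had 263, 341 and 329 counts in glycerol+melatonin and 220, 232 and 1 in glycerol. Ppm1h, 6.97 times below in glycerol replicate 3, and Map3k7, 4.22 times below in glycerol+melatonin replicate 3, were among them, as were Ppp1cb and Tnfaip3 of the lists above. What sets these single values was not tested.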
